A study of Mus musculus with 8 samples.

Results

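The arrays of N4-stimulated CD8 T cells that lack the NF-kB subunits p50 and cRel were compared with the arrays of wild-type (WT) cells stimulated in the same way. The comparison used the 4 arrays titled for these groups, 2 p50 cRel DKO (double knockout) and 2 WT, out of 8 arrays in the series. Its features were the probe sets with 1 autosomal gene symbol, which cover 17404 genes, of which 12082 passed a filter on dim signals and were tested. CD8 T cells of C57BL/6 mice were positively selected from spleens by magnetic beads, and 10 of them were put with each bone-marrow dendritic cell for 18 h. In both groups the dendritic cells carried the ovalbumin peptide N4 and were then removed through their surface protein CD11c. The remaining 4 arrays, which enter here as reference levels, were WT cells with non-pulsed dendritic cells and cells without the kinase PKCθ (PKCθ KO) with N4. The age and sex of the mice, the antigen receptor of the T cells, and whether the genes were missing in all cells of the mice are not given in the sources used here. Nor do those sources tell whether replicate arrays stem from different mice or cultures, so p-values cover only the spread among these samples, which may be technical.

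NF-kB is a family of transcription factors that work as pairs of subunits. In resting T cells most of these pairs are held in the cytoplasm by IkB proteins, and signals from the antigen receptor and CD28 lead to the breakdown of IkB and let the pairs enter the nucleus. The gene Rel encodes cRel, a subunit that activates transcription and is abundant in lymphocytes, and Nfkb1 encodes the precursor of p50, which binds DNA but lacks an activation domain of its own. Interleukin 2, the growth factor that activated T cells make for themselves and their neighbours, is a classical cRel target, and its promoter holds the CD28 response element to which cRel binds.

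The promoters of the 3 changed genes with the largest falls and of the gene with the largest rise are shown so that the DNA next to their starts can be read beside their levels. Each is the 250 bases before the transcription start in RefSeq (GRCm38.p6), written in the direction of transcription: Il3 at chr11:54267280-54267529 (minus strand), Lad1 at chr1:135818348-135818597 (plus strand), Il2 at chr3:37125955-37126204 (minus strand) and Gzmc at chr14:56234658-56234907 (minus strand). Capitals mark letters of the CD28 response element core.
Il3: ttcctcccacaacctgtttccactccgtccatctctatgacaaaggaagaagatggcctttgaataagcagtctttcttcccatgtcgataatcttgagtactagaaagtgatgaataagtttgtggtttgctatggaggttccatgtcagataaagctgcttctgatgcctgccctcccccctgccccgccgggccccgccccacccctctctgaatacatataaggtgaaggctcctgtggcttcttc
Lad1: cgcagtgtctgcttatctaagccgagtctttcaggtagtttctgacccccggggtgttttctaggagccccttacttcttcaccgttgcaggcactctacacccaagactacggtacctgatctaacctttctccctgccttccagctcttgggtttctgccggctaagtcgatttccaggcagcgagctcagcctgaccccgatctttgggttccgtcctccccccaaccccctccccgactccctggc
Il2: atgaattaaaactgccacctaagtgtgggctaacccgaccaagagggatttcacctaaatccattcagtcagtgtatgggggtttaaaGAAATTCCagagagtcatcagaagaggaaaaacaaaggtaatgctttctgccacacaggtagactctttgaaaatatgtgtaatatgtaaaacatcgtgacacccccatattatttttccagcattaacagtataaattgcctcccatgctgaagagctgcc
Gzmc: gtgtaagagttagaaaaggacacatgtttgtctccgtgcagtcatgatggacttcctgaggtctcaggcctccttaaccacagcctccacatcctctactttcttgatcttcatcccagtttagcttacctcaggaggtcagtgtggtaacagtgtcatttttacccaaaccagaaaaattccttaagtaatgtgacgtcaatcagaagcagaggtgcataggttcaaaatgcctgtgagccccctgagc

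The letters searched on both strands were GGNNTTTCC for an NF-kB-like core, GAAATTCC for the CD28 response element core and TGANTCA for AP-1, with overlaps between them kept. The Il2 promoter held GAAATTCC, beginning 162 bases before the start, and the windows of Il3, Lad1 and Gzmc held none of these. Of the changed genes described in the next paragraphs, 22 that were lower and 27 that were higher in the DKO had a promoter in the table. GGNNTTTCC was found for 4 of the 22 (Ccl9, Hemk1, Rel and Tnfrsf25) and 3 of the 27 (Ifit1bl1, Ifit3 and Ltb), beside 5.62% of all 27025 genes with a promoter. GAAATTCC was found for Il2 alone among them, beside 0.984% of all genes. TGANTCA was found for 4 of the 22 (Acsl6, Adam19, Ccl9 and Plaur) and 3 of the 27 (Atp8b4, Ifi209 and Ifit3), beside 7.82% of all genes. Over all 32851 windows of this length the shares were 4.93%, 0.831% and 6.75%. A match describes the letters only.

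Levels are log2(signal + 16), a scale on which the changes of dim genes are understated, and differences are DKO minus WT N4 in log2 units unless said otherwise. Rel checks the label of the DKO arrays. Its level was 9.82 and 9.53 on the WT N4 arrays and 6.19 and 5.92 on the DKO arrays, so the groups were far apart and the difference was -3.62 (SE 0.26, limma adjusted p = 0.000984). The sources used here do not say which part of Rel its probe set covers relative to the deletion. No probe set was named for Nfkb1, which was not analysed here. Within 10 protein-coding genes on either side of Rel, 16 others were measured and none passed the test, the neighbour Pus10 lying at -0.57.

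The arrays differed in more than the deleted genes, and these values belong beside all results. Median signals were 33.6 and 52.5 on the WT N4 arrays and 37.8 and 48.0 on the DKO arrays, all scaled to the same trimmed mean, and array number 1 was the dimmer in each group. The sex-linked transcripts differed: 3 Y chromosome genes fell (Eif2s3y -5.35, Kdm5d -4.19 and Uty -3.58), and Xist lay at 5.18 and 6.65 on the WT N4 arrays and at 12.57 and 12.27 on the DKO arrays. This difference cannot be told apart from that of genotype. It was not present between the DKO and PKCθ KO arrays, whose Xist levels were 12.44 and 12.33. The non-pulsed arrays differed from each other: Xist read 6.05 on the first and 11.84 on the second, while Eif2s3y was bright on both, at 11.06 and 10.65. Timp1, an X-linked protease inhibitor, was lower by 2.49.

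The summed signal of 21 B cell markers was 21071 and 7607 on the WT N4 arrays and 20889 and 19603 on the DKO arrays, beside 147087 and 101932 on the non-pulsed arrays. WT N4 array 2 thus stood apart, and WT N4 array 1 was close to the DKO arrays. The sum of 34 dendritic cell and macrophage markers was 17527 and 7999 in WT N4 and 9310 and 9321 in the DKO, with the macrophage genes C1qa and C1qc under a signal of 16 on all 4 arrays. The sum of 10 neutrophil markers was 1977 and 600 in WT N4 against 1129 and 1001, and that of 4 CD4 T cell markers 5666 and 9312 against 3856 and 3558. The sum of 2 erythroid markers was 135 and 81.5 against 268 and 324. The 9 CD8 T cell markers summed to 58394 and 54110 in WT N4 and 71759 and 58150 in the DKO, and the defining genes Cd8a (12.64 and 12.27 in WT N4, 13.29 and 12.89 in the DKO) and Cd3e were bright on all 4 arrays. No member of the B cell, myeloid, neutrophil, CD4, NK or erythroid lists passed the test, and their part in the results was not tested beyond the values given here. In RNA from a whole culture, fewer cells of a type and less RNA per cell cannot be told apart.

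Most genes did not pass the test between the 2 genotypes, and 61 did. Of the 12082 autosomal genes, 0.505% had a limma Benjamini-Hochberg adjusted p under 0.05; 31 were higher in the DKO (0.257%) and 30 were lower (0.248%). A change of 2-fold or more was seen in 29 higher and 27 lower genes, and one of 4-fold or more in 15 and 11. The median difference of all genes was 0.00 and the SD of the differences was 0.39. At an unadjusted p under 0.05 there were 756 genes, 6.26% of those tested. The shares of all genes belong beside the count of changed members of each gene list below. Every array of the 4 mattered to the count: it was 31 without WT N4 array 1, 26 without WT N4 array 2, 13 without DKO array 1 and 10 without DKO array 2. The 9 genes that passed with each of the 4 left out in turn and under all 10 other settings were the lower genes Il3, Il2, Rel, Acsl6, Wdfy1 and Tent5a and the higher genes Gzmc, Ifit1bl1 and Ltb.

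**Figure D1:**
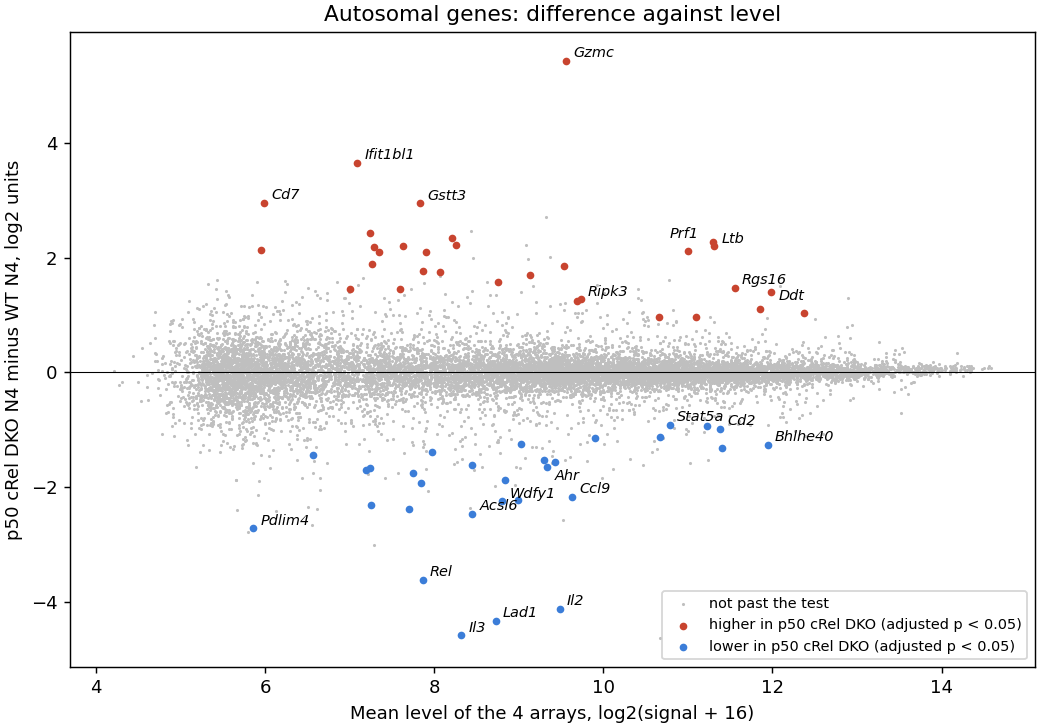
Difference between the p50 cRel DKO N4 and WT N4 arrays (log2 units) against the mean level of the 4 arrays, 1 point for each of 12082 autosomal genes. The 31 genes that were higher (red) and the 30 that were lower (blue) are drawn over the genes that did not pass (grey). The grey points spread more widely at dim levels and overlap with many of the changed genes. Of all genes, the changed ones included, 352 differed by at least 1 log2 unit. Gzmc at 5.43 is the highest point; Il17a, which did not pass, is the lowest at -4.63, just below Il3 at -4.58.

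Read within replicate number, the changed genes had the same sign in both numbers in 61 of 61 cases, and the smallest difference within a number was 0.78 in size. These genes were chosen by their difference on the same arrays, so like signs among them follow largely from that choice and are no separate support. Both within-number differences were at least 2-fold for 55 of them. Over all autosomal genes the signs were alike for 55.5%, and 163 genes had 2-fold differences of 1 sign in both numbers, 74 higher and 89 lower. The labels do not say that a number marks a shared day or batch, so these values describe the arrays and are no paired test.

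**Figure D2:**
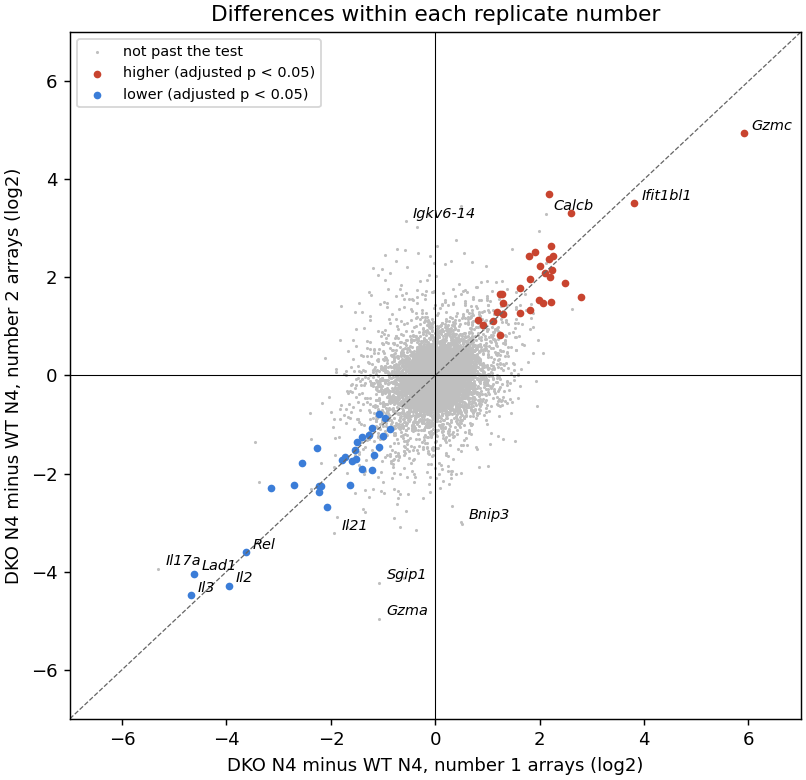
Difference DKO N4 minus WT N4 (log2) in the number 2 arrays against that in the number 1 arrays, 1 point per autosomal gene, with the dashed line marking equal values. The changed genes, which were chosen on these same arrays, lie near the line. Gzma (-1.07 and -4.96), Sgip1 (-1.07 and -4.23), Bnip3 (0.50 and -3.00) and Igkv6-14 (-0.57 and 3.15) lie far from it.

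Among the cytokine genes Il3 and Il2 fell, by amounts that were the largest and the third largest of the 30 falls; Lad1 lay between them. Il3, which encodes a growth factor for myeloid progenitors, mast cells and basophils, read 10.69 and 10.53 on the WT N4 arrays and 6.00 and 6.05 on the DKO arrays. The fall was -4.58 (SE 0.29, limma adjusted p = 0.000984); the non-pulsed arrays lay lower still, at 4.28 and 4.87. Il2 read 11.34 and 11.75 in WT N4 and 7.39 and 7.46 in the DKO, and fell by 4.12 (SE 0.30, limma adjusted p = 0.000984). The DKO arrays fell between the 2 non-pulsed arrays (7.12 and 7.60) for Il2, and the WT N4 and DKO arrays were more than 3 log2 units apart. Ltb, which encodes lymphotoxin beta, a membrane-bound ligand that shapes lymphoid tissue, moved the other way: it read 10.42 and 10.00 in WT N4 and 12.67 and 12.16 in the DKO, a rise of 2.20 (SE 0.20, limma adjusted p = 0.00264). It lay at 13.52 and 13.39 on the non-pulsed arrays. B cells also express Ltb, and the part of the B cell marker sums given before in its rise was not tested.

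Of 27 cytokine genes measured, Il2 and Il3 fell, Ltb rose and 24 did not pass, beside 0.505% of all genes that changed. The median of the list was -0.50, beside 0.00 for all genes. Il17a, a neutrophil-recruiting cytokine, had the widest gap of those that did not pass, at 13.29 and 12.67 in WT N4 and 7.98 and 8.73 in the DKO. Its difference of -4.63 had a limma adjusted p of 0.194; the fit pools the spread of all 4 groups, and the non-pulsed arrays read 6.25 and 10.81. Il21, a cytokine that sustains CD8 and B cell responses, read 9.80 and 11.81 against 7.87 and 8.59 (-2.57, limma adjusted p = 0.126). A dimmer probe set of Il21 fell by 2.02 and passed when all probe sets were tested (limma adjusted p = 0.0396). Csf2, which encodes GM-CSF, read 7.95 and 6.72 against 4.50 and 5.35 (-2.41), Lif 11.97 and 12.03 against 10.52 and 10.42 (-1.53, limma adjusted p = 0.0926) and Il6 10.94 and 11.19 against 9.49 and 9.64 (-1.50). With the probe set used for each gene, none of Il21, Csf2, Lif and Il6 passed in the main fit. With the replicate number added to the fit, Il21, Lif and Il6 passed (limma adjusted p = 0.0181, 0.0459 and 0.0186), while Il17a and Csf2 did not. Il17a passed under 1 of the 14 alternatives.

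Ifng, the main effector cytokine of CD8 T cells, read 13.45 and 12.45 in WT N4 and 11.80 and 11.86 in the DKO, a difference of -1.12 that did not pass. Tnf read 9.37 and 9.37 against 10.13 and 9.33, with overlapping groups. Il16, a chemoattractant for CD4-bearing cells, differed by 1.20 (limma adjusted p = 0.0677). Of 20 chemokine genes 1 fell: Ccl9, a CC chemokine that myeloid cells make in quantity, read 11.11 and 10.31 in WT N4 and 8.56 and 8.54 in the DKO (-2.17, limma adjusted p = 0.0180). PKCθ KO arrays were above both, at 11.69 and 11.71. Beside it stand the myeloid marker sums of 17527 and 7999 in WT N4 and 9310 and 9321 in the DKO, and their part in the fall was not tested. The list's median was -0.49, and Cxcl3 (-1.58), Ccl17 (-1.51) and Cxcl16 (-0.85) did not pass.

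**Figure D3:**
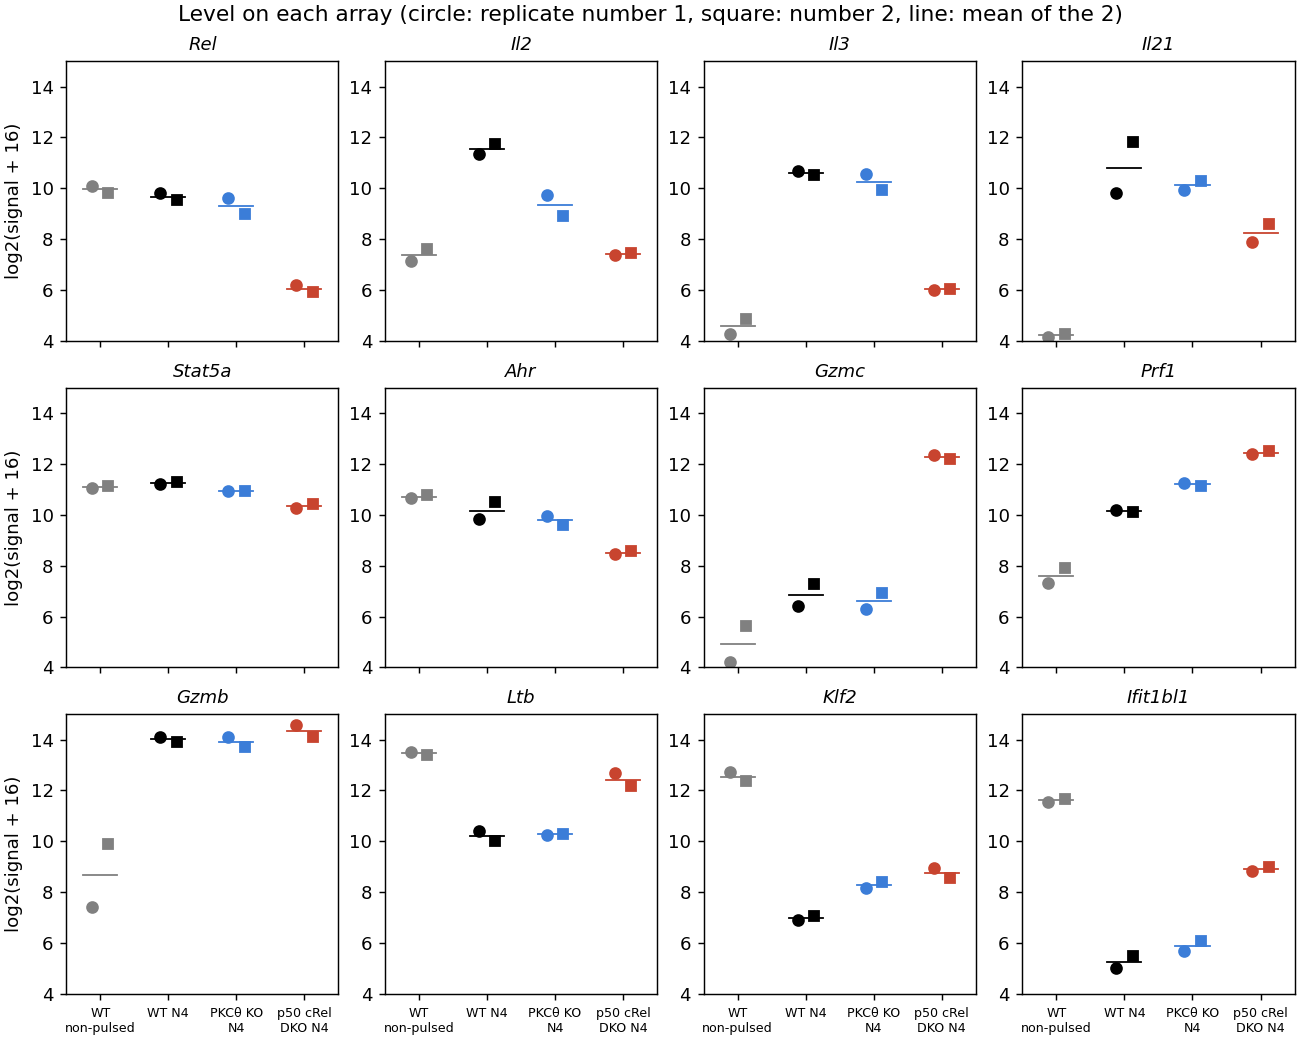
Level, log2(signal + 16), of 12 genes on each of the 8 arrays by group (circle: number 1, square: number 2, line: mean of the 2). Il2, Il3 and Rel are low in the DKO, Gzmc, Prf1, Ltb and Ifit1bl1 are high beside WT N4, Gzmb is bright in every N4 group (13.91 or more on the WT N4 and DKO arrays), and Il21 shows the spread of the WT N4 arrays.

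Outside Rel, the other NF-kB subunits and their inhibitors did not pass. Of 10 genes measured, Rel was the 1 that fell and 9 did not pass, with a median of 0.03. Relb, the subunit of the alternative pathway, read 10.18 and 9.82 in WT N4 and 11.05 and 10.81 in the DKO (0.93, limma adjusted p = 0.142). Nfkbie, which encodes IkB epsilon, an inhibitor that binds cRel pairs, read 10.70 and 10.55 against 9.78 and 9.84 (-0.82, limma adjusted p = 0.103). Neither gene passed, and their differences had opposite signs. Rela differed by -0.04, Nfkb2 by 0.28, Nfkbiz by -0.49 and Nfkbia, the classical IkB gene that NF-kB itself induces, by 0.10.

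Among 22 genes upstream of NF-kB or in its feedback, Otud1 rose and 21 did not pass. Otud1, a deubiquitinase, read 7.28 and 7.03 in WT N4 and 9.19 and 9.55 in the DKO (2.21, limma adjusted p = 0.0326), the latter close to the non-pulsed arrays (8.53 and 9.36). Tnfaip3, the feedback inhibitor A20, differed by -0.26, the adaptor Traf1 by -0.60 and Bcl10, a scaffold between PKCθ and IkB kinase, by 0.50. Of 43 genes listed as NF-kB targets, Il2 fell, Ltb rose and 41 did not pass, with a median of -0.23; 30 differences were below 0 and 13 above. Bcl2l1, which encodes the survival protein Bcl-xL, read 10.80 and 10.46 against 9.84 and 10.11 (-0.66, limma adjusted p = 0.312). Tnfrsf4 (OX40) differed by -0.90, Gadd45b by -0.68, Myc by -0.07, Irf4 by -0.13 and Icam1 by -0.03.

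Genes around interleukin 2 signalling showed a small fall in Stat5a. Stat5a, the transcription factor that interleukin 2 activates through its receptor, read 11.21 and 11.28 in WT N4 and 10.25 and 10.41 in the DKO, and fell by 0.91 (SE 0.13, limma adjusted p = 0.0242). Its neighbour in function Stat5b read 11.06 and 11.05 against 10.58 and 10.40, a difference of -0.56 that did not pass (limma adjusted p = 0.179). The receptor chains Il2ra (12.52 and 12.26 against 11.89 and 11.87) and Il2rb (11.49 and 11.23 against 11.97 and 11.64) differed by -0.51 and 0.44, and neither passed. Of 29 genes listed as interleukin 2 and STAT5 genes, Prf1 and Ltb rose, Stat5a fell and 26 did not pass; the median was -0.42. None of 27 cytokine receptor genes passed. Il1r1, the interleukin 1 receptor, read 7.79 and 6.59 against 4.41 and 4.41 (-2.78, limma adjusted p = 0.142), and Il12rb2 9.75 and 10.60 against 8.66 and 8.54 (-1.58).

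Among the genes of killing, granzyme C and perforin rose. Gzmc, a granule protease of strongly stimulated CD8 T cells, read 6.43 and 7.26 on the WT N4 arrays and 12.35 and 12.20 on the DKO arrays. It was the largest rise of the comparison, 5.43 (SE 0.47, limma adjusted p = 0.00253). Non-pulsed arrays read 4.22 and 5.64 and PKCθ KO arrays 6.30 and 6.92, so the DKO arrays alone were bright. The granzymes near Gzmc are close relatives in sequence, and whether its probe set also binds their transcripts was not tested. Prf1, which encodes the pore-forming protein perforin, read 10.20 and 10.11 against 12.38 and 12.50 and rose by 2.28 (limma adjusted p = 0.00253), with PKCθ KO arrays between them at 11.25 and 11.13. A second, much dimmer probe set of Prf1 differed by 0.10.

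The other granule genes did not pass: of 24 measured, 2 rose, beside 0.257% of all genes, and 22 did not pass. The median of the list was 0.15. Gzmb was near the top of the scale in both groups (14.11 and 13.91 against 14.57 and 14.12, a difference of 0.33). Gzma read 7.04 and 10.57 in WT N4, a wide spread, and 5.97 and 5.61 in the DKO (-3.01, limma adjusted p = 0.540). Fasl, the death ligand, differed by 1.41, Crtam by 1.61, the protease Ctsw by 1.04 and the granzyme inhibitor Serpinb6b by -1.07.

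Klrc1, which encodes the inhibitory receptor NKG2A of NK cells and activated CD8 T cells, also rose. It read 10.12 and 9.77 in WT N4 and 11.92 and 12.21 in the DKO, a rise of 2.12 (limma adjusted p = 0.0180), and its second probe set rose by 1.74. PKCθ KO arrays lay between them at 10.80 and 11.21. The DKO differed from the PKCθ KO by 1.06, which did not pass (limma adjusted p = 0.292). Beside this, the summed signal of 6 NK and innate lymphocyte markers was 4388 and 4946 in WT N4 and 10719 and 10719 in the DKO. It was 8076 and 9914 on the PKCθ KO arrays and 22032 and 17974 on the non-pulsed arrays, so WT N4 was the lowest group. Of these markers, 0 of 6 passed the test. The largest differences among them, picked after their values were seen, were those of Klrd1 (1.50), the partner chain of NKG2A, and Klrk1 (1.21). CD8 T cells express both genes too. Fcer1g, an adaptor of NK and myeloid receptors, differed by -0.64. The part of NK cells in the rise of Klrc1, Gzmc and Prf1 was not tested.

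Among costimulatory and inhibitory receptors and signalling inhibitors 3 genes changed. Tnfrsf25, the receptor DR3 that costimulates T cells, read 8.31 and 8.50 against 6.07 and 6.12 and fell by 2.31 (limma adjusted p = 0.0248). Cd2, an adhesion and costimulatory receptor of T cells, read 11.90 and 11.85 against 11.02 and 10.76 and fell by 0.98 (limma adjusted p = 0.0206). They were the 2 of 20 costimulatory genes that changed, beside 0.505% of all genes. Of 27 inhibitory receptors and signalling inhibitors Spry2, an inhibitor of the Ras and ERK pathway, rose (6.60 and 7.12 against 8.71 and 9.20, a difference of 2.10), while a dimmer probe set of Spry2 differed by -0.29. Dusp6, an ERK phosphatase, differed by 1.39 (limma adjusted p = 0.0569), Egr3 by 1.46 (limma adjusted p = 0.0935) and the inhibitory receptor Lag3 by -0.84, and none of these 3 passed.

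Of 43 transcription factors of effector and memory cells, 2 fell, beside 0.248% of all genes. Ahr, the aryl hydrocarbon receptor, read 9.84 and 10.49 against 8.44 and 8.58 and fell by 1.65 (limma adjusted p = 0.0227); a dimmer probe set differed by -0.22. Bhlhe40, a regulator of cytokine production in T cells, read 12.41 and 12.73 against 11.34 and 11.28 and fell by 1.26 (limma adjusted p = 0.0206), to the level of the non-pulsed arrays (11.23 and 11.66). Tbx21 (0.13) and Eomes (-0.27), which direct effector and memory fates, did not pass. The median of the list was -0.19.

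Of 40 naive and quiescence genes, Klf2 and Slfn1 rose and 38 did not pass, beside 0.257% of all genes that rose. Klf2, which keeps resting T cells quiescent and able to recirculate, read 6.90 and 7.07 in WT N4 and 8.96 and 8.54 in the DKO, a rise of 1.77 (limma adjusted p = 0.0129) that left it far below the non-pulsed arrays (12.71 and 12.36). The schlafen gene Slfn1 read 6.79 and 6.94 against 8.42 and 8.22 and rose by 1.45. The median of that list was 0.08; the survival receptor Il7r differed by 0.47 and Pik3ip1, a brake on PI3 kinase, by 0.99. Cd7, an immunoglobulin superfamily receptor of T and NK cells, read 4.64 and 4.38 in WT N4 and 7.25 and 7.69 in the DKO (2.96, limma adjusted p = 0.00358). Ccr9, the receptor that guides lymphocytes to the gut, read 5.78 and 6.60 against 8.28 and 8.49 (2.19, limma adjusted p = 0.0375), and its 2 other probe sets differed by 1.26 and 1.31. Non-pulsed arrays read 11.30 and 10.90 for Cd7 and 11.97 and 12.87 for Ccr9. Of 29 homing and adhesion genes Cd7 and Ccr9 were the 2 that changed, beside 0.505% of all genes. Tmem71 (2.35) and Tcp11l2 (1.45) also rose, and for both the non-pulsed arrays were brighter than the DKO. Other changed genes that were bright on the non-pulsed arrays fell further in the DKO: Cd36 read 12.63 and 12.13 on the non-pulsed arrays, Slc15a3 11.93 and 11.87 and Itpripl2 10.00 and 10.21, each above both WT N4 arrays. The non-pulsed arrays also had summed signals of 170520 and 136366 for the 34 dendritic cell and macrophage markers, and the part of those cells in these levels was not tested.

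Interferon-stimulated genes rose in 4 of 46 cases and fell in none, beside 0.257% of all genes that rose and 0.248% that fell. Ifit1bl1 read 5.03 and 5.49 in WT N4 and 8.84 and 9.003 in the DKO, a rise of 3.66 (SE 0.25, limma adjusted p = 0.000984). Ifit3, of the same family of RNA-binding antiviral proteins, read 6.19 and 6.39 against 8.39 and 8.40 (2.11, limma adjusted p = 0.0102). Ifi213, of the family of interferon-inducible DNA sensors, rose by 2.44 and Rtp4 by 1.76; another probe set of Ifi213 differed by 0.62. For all 4 genes both non-pulsed arrays were brighter than the DKO arrays, at 11.56 and 11.65 for Ifit1bl1. Outside the list Ifi209 (1.86), a relative and neighbour of Ifi213, and Epsti1 (1.24) rose, while Plscr1, a scramblase that interferon also induces, fell from 12.11 and 12.03 to 10.71 and 10.78 (-1.33, limma adjusted p = 0.00420). The list had a median of 0.23, and Irf7 (0.98), Oas2 (0.88) and Isg20 (0.71) did not pass. Near-identical relatives of Ifit1bl1, Ifi213 and Ifi209 could share probes, which was not tested.

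**Figure D4:**
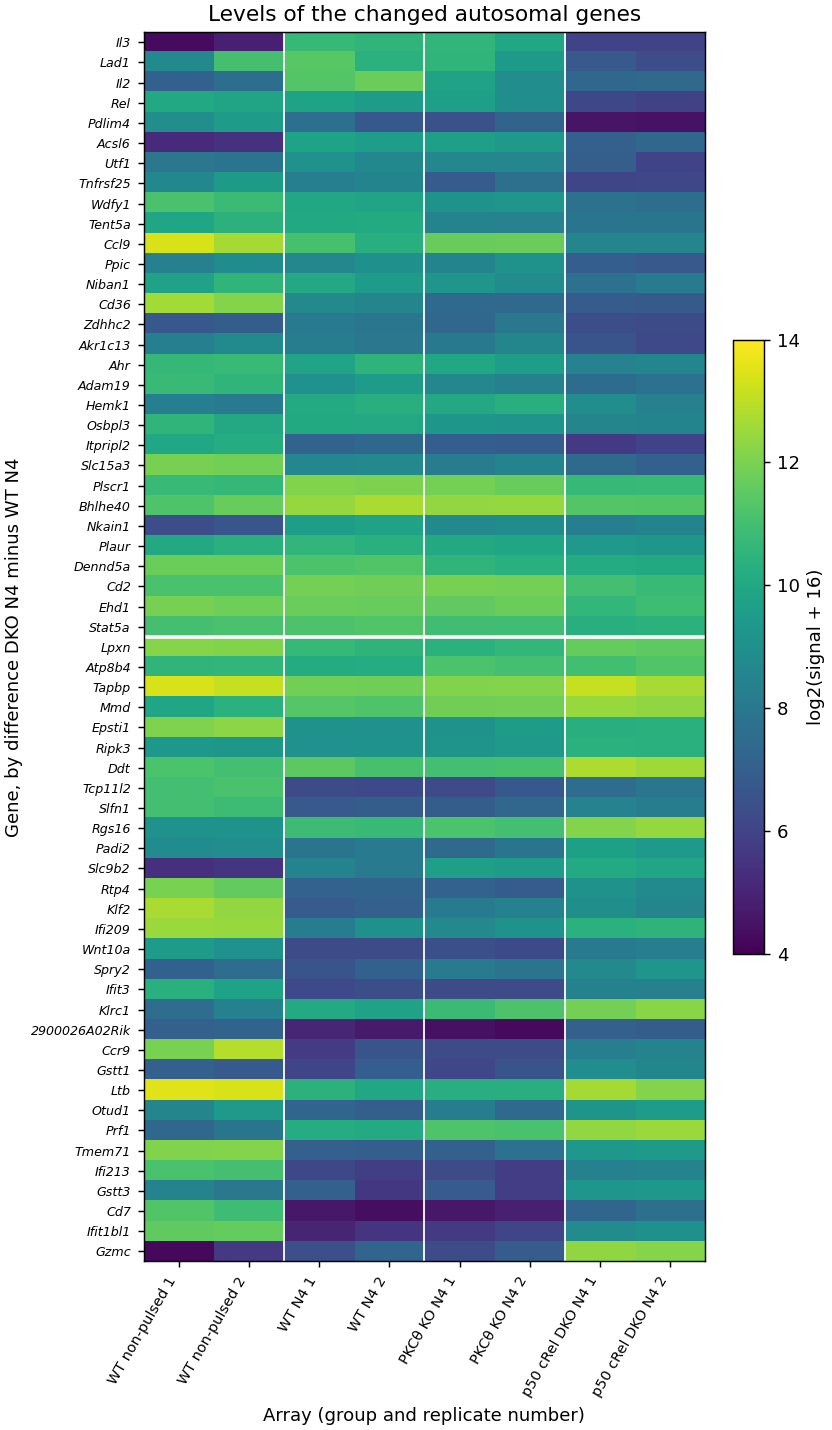
Level, log2(signal + 16), of the 61 changed autosomal genes (rows, from the largest fall at the top to the largest rise at the bottom, a white line between falls and rises) on the 8 arrays (columns). Both DKO arrays stand apart from both WT N4 arrays in every row, as the genes were chosen by this difference. The non-pulsed arrays are the brightest for genes such as Ltb, Klf2, Cd7, Ccr9, Tmem71 and Ifit1bl1.

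Glutathione transferases of 1 locus rose. Gstt3 read 7.08 and 5.63 in WT N4 and 9.27 and 9.35 in the DKO (2.95, limma adjusted p = 0.0471), and Gstt1 6.11 and 6.97 against 8.89 and 8.58 (2.20, limma adjusted p = 0.0336). Ddt, which encodes D-dopachrome tautomerase, a relative of the cytokine MIF, read 11.48 and 11.10 against 12.78 and 12.58 (1.397, limma adjusted p = 0.0102). Ddt, Gstt3 and Gstt1 follow one another on chromosome 10 with 0 protein-coding genes between. The DKO arrays were brighter than the non-pulsed arrays for all 3 (8.47 and 7.96 for Gstt3). Of 29 glutathione and oxidative stress genes 2 rose, beside 0.257% of all genes, and 27 did not pass. Gstt2 differed by 0.97, and the median of the list was -0.07. The Gstt genes are similar in sequence, and shared probe binding was not tested.

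Other changed genes also lie side by side. Il3 is followed on chromosome 11 by Acsl6, which encodes a ligase that activates long-chain fatty acids; Acsl6 read 9.80 and 9.57 in WT N4 and 7.08 and 7.35 in the DKO and fell by 2.47 (SE 0.22, limma adjusted p = 0.00253). Its non-pulsed arrays read 5.21 and 5.43, the same order of groups as for Il3. On the other side of Il3, with 2 protein-coding genes between, lies Pdlim4, a cytoskeletal adaptor, which read 7.67 and 6.77 against 4.53 and 4.48 (-2.72, limma adjusted p = 0.0236). The 2 genes between are Csf2 (-2.41) and P4ha2 (-1.37), and neither passed. For Pdlim4 the non-pulsed arrays read 8.92 and 9.51, above both WT N4 arrays, an order of groups unlike that for Il3 and Acsl6. Acsl6 was the 1 gene of 26 in cholesterol and fatty acid synthesis that changed. Ifi213 and Ifi209 on chromosome 1 and Ifit3 and Ifit1bl1 on chromosome 19 are neighbours as well. Over the autosomes the share of tested genes that changed ran from 0.203% on chromosome 2 to 1.09% on chromosome 19, beside 0.505% in all; it was 0.974% on chromosome 1, 0.950% on chromosome 14, 0.946% on chromosome 11 and 0.829% on chromosome 10. Of the genes measured within 10 protein-coding genes of Nfkb1 on chromosome 3, Slc9b2 alone passed. Slc9b2, a sodium-proton exchanger, rose from 8.47 and 8.10 to 10.10 and 9.88 (1.71, limma adjusted p = 0.0129), while PKCθ KO arrays read 9.63 and 9.53. The genes next to Nfkb1, Manba (-0.64) and Slc39a8 (0.13), did not pass.

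The remaining lower genes span membrane proteins, enzymes and regulators. Lad1, an anchoring filament protein of epithelia, read 11.39 and 10.39 in WT N4 and 6.78 and 6.35 in the DKO (-4.33, limma adjusted p = 0.0361). Wdfy1, an endosomal protein with WD repeats, read 9.99 and 9.86 against 7.76 and 7.60 (-2.24, limma adjusted p = 0.00130), and 2 other probe sets fell by 2.70 and 2.20. Tent5a, a noncanonical poly(A) polymerase, read 10.08 and 10.13 against 7.89 and 7.87 (-2.22, limma adjusted p = 0.00253). The scavenger receptor Cd36 read 8.69 and 8.55 against 6.90 and 6.83 (-1.75), and its second bright probe set fell by 1.72. Utf1 fell by 2.37 with another probe set at 0.03. Ppic, a cyclophilin (-1.93), Niban1 (-1.87), the palmitoyltransferase Zdhhc2 (-1.70), the reductase Akr1c13 (-1.67), the metalloprotease Adam19 (-1.62), the methyltransferase Hemk1 (-1.56) and the oxysterol-binding protein Osbpl3 (-1.53) fell by at least 1.5 log2 units. Itpripl2 (-1.44), the peptide transporter Slc15a3 (-1.39), Nkain1 (-1.25), the urokinase receptor Plaur (-1.14), Dennd5a (-1.12) and the endocytic protein Ehd1 (-0.93) fell by less.

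The remaining higher genes include signalling and antigen presentation genes. Rgs16, which shortens G protein signals, read 10.87 and 10.77 in WT N4 and 12.15 and 12.43 in the DKO (1.47, limma adjusted p = 0.00416), and its 2 other probe sets differed by 1.55 and 1.81. Ripk3, the kinase of necroptosis, read 9.07 and 9.12 against 10.37 and 10.36 (1.28, limma adjusted p = 0.0129). Wnt10a, a secreted signalling protein, rose by 1.89 and Padi2, which converts arginine to citrulline, by 1.57. Tapbp, which encodes tapasin and loads peptide on MHC class I, read 11.86 and 11.84 against 13.11 and 12.68 (1.04, limma adjusted p = 0.0374). Mmd (1.11), Atp8b4 (0.97) and the adaptor Lpxn (0.97) rose as well. Of the 61 changed genes 32 had 1 probe set on the array; for the 25 with other probe sets past the filter, 37 of 39 other probe sets had the same sign and 5 passed on their own. Over all 22216 autosomal probe sets, 46 (0.207%) passed.

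No gene of the growth and division lists passed, beside 0.505% of all genes, a share at which lists of this size say little. None of 49 cell cycle genes passed (median 0.05), nor did any of 32 Myc and ribosome biogenesis genes (-0.02), 25 apoptosis and survival genes (0.01), 27 amino acid transport and ATF4 target genes (-0.06) or 33 T cell receptor signalling genes (0.18). At an unadjusted p under 0.05, limma gave 0 of 49 and 0 of 32 for the first pair of lists and 3 of 25, 3 of 27 and 9 of 33 for the others, beside 6.26% of all genes. Themis, a T cell receptor signalling regulator, read 10.63 and 11.30 against 9.26 and 9.29 (-1.69, limma adjusted p = 0.0924). None of 25 glycolysis and hypoxia genes passed, and 1 had an unadjusted p under 0.05 in limma: Hk2, a hexokinase, read 12.44 and 12.73 against 11.78 and 11.67 (-0.86) and lay at the threshold. The median of that list was -0.45, and it was -0.02 within number 1 and -0.77 within number 2. Bnip3, a hypoxia-induced gene, read 8.82 and 12.44 in WT N4 and 9.32 and 9.44 in the DKO, so WT N4 array 2 stood apart from the other 3.

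**Figure D5:**
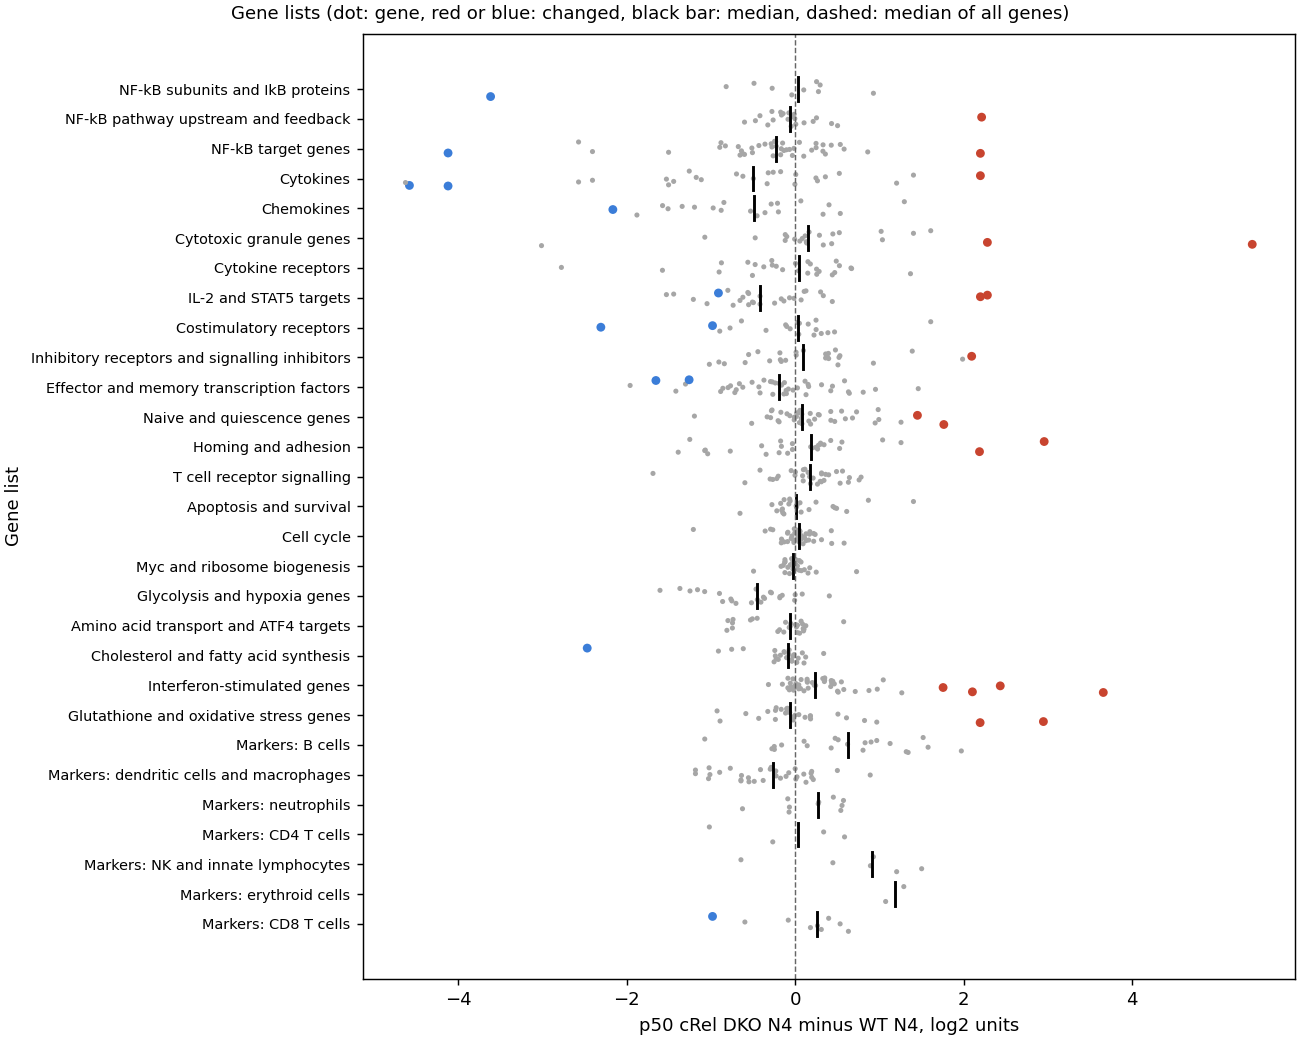
Difference DKO N4 minus WT N4 (log2 units) of the members of 29 gene lists, 1 dot per gene, with changed genes in red or blue, the median of each list as a black bar and that of all genes as a dashed line. No list holds more than 4 changed members, cell cycle and Myc lists are narrow around 0, and B cell markers spread to the right (median 0.62).

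Some large differences of 1 sign in both numbers did not pass. After Il17a, Gzma and Il1r1, the largest falls of this kind were those of Sgip1 (6.23 and 9.53 against 5.16 and 5.29) and Il21. The largest rises were those of Calcb, a calcitonin-related peptide (8.67 and 7.27 against 10.79 and 10.57, 2.71, limma adjusted p = 0.0748), Rasgef1b (2.47), Nrn1 (8.16 and 7.81 against 10.28 and 10.11, 2.21, limma adjusted p = 0.0516), the semaphorin receptor Nrp1 (2.02) and the ectonucleotidase Nt5e (1.99). Igkv6-14, an immunoglobulin light chain segment, read 7.81 and 4.21 in WT N4 and 7.24 and 7.35 in the DKO, and Ifitm1 6.94 and 10.08 against 7.45 and 7.05. In these 2 genes, as in Bnip3, WT N4 array 2 stood apart from the other 3 of the comparison and the within-number differences had opposite signs. PKCθ KO array 2 differed from PKCθ KO array 1 in the same direction: Bnip3 read 9.33 and 13.17 there, Ifitm1 7.70 and 9.56, and Igkv6-14 7.98 and 5.62.

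Against the PKCθ KO arrays, which shared the peptide and the sex-linked pattern, the DKO arrays differed in 54 autosomal genes (0.447%). This comparison uses the same DKO arrays, so it is no independent repeat. Rel (-3.25, limma adjusted p = 0.00361), Il3 (-4.24, limma adjusted p = 0.00255), Il2 (-1.90, limma adjusted p = 0.0416), Ccl9 (-3.15, limma adjusted p = 0.00604) and Acsl6 (-2.31, limma adjusted p = 0.00624) were lower in the DKO than in the PKCθ KO. Gzmc (5.66), Ifit1bl1 (3.03), Cd7 (2.71), Ifi213 (2.37), Ltb (2.13), Ddt (1.63) and Prf1 (1.25) were higher, each with an adjusted p under 0.05 in limma. For other genes this difference did not pass: Klf2 read 8.15 and 8.38 in the PKCθ KO and differed by 0.48 (limma adjusted p = 0.712), Tent5a read 8.46 and 8.45 and differed by -0.58 (limma adjusted p = 0.512), and Slc9b2 differed by 0.41, Cd36 by -0.55 and Atp8b4 by 0.04. Il2 read 9.75 and 8.91 in the PKCθ KO, between its levels in WT N4 and in the DKO.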

How the data were processed

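Expression was measured on 8 one-colour Affymetrix mouse arrays, 2 in each of 4 groups taken from the sample titles; an array with no number in its title was taken as number 1. The deposited intensity (linear signal) of a probe set was made by the authors with MAS5 in GCOS 1.4, as the submitters' processing notes name them. The 2% trimmed mean was 500 on all arrays. A genome build is not given in these sources.

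Of 45101 probe sets, 64 controls were left out. Of the others 34945 had 1 gene symbol in the platform annotation, 932 had several and 9160 were unnamed; for 34741 the symbol was brought up to date through Entrez identifiers and RefSeq (GRCm38.p6), which also gave chromosomes and gene order. In all, 33588 probe sets had 1 autosomal symbol. Values were taken as log2(signal + 16). Probe sets with a mean under the 40th percentile (5.38) were left out, which kept 27022, and the brightest probe set of a gene was used, giving 12520 genes. All 8 arrays entered 1 model of group means in limma 3.58.1 (R 4.3.3; lmFit, eBayes with trend, 4 residual degrees of freedom), tested on simulated data. P-values were adjusted over all genes by Benjamini-Hochberg; a gene with an adjusted p under 0.05 is called changed. The number of arrays limits the precision. Across genes, replicate arrays had a Pearson r of 0.977 in WT N4 and 0.987 in the DKO.

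The genes compared and the 30 gene lists (757 genes, 651 measured) were chosen with earlier results of these data known, so a list's count is not independent evidence. Named are Rel, all changed genes with a gene name, list members with the lowest p, a few fixed genes, the largest differences that did not pass and those that disagreed between numbers. Clone names were left out. The alternatives were other pseudocounts, filters, scalings, probe set rules, fits and arrays.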

Additional observations from a re-analysis of the deposited data

How the results depend on the processing

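The 61 changed genes kept their direction under all 14 alternatives that measured them, and 12 of them passed under all 10 processing alternatives. These genes were chosen by their difference on the same arrays, so the kept direction follows largely from that choice and is no separate support. The count was 31 (16 higher, 15 lower) after median centring and 31 (19 higher, 12 lower) without a mean-variance trend; the cause was not tested. Leaving out 1 array gave 10 to 31 genes, 4 to 18 higher and 6 to 13 lower, with fewer samples in a group of which the lone one is assumed to vary like the other groups. Other settings gave 43 to 75. With the replicate number as a replicate block the count was 193 (100 higher, 93 lower), and 149 in place of 54 against the PKCθ KO. Among the named genes that did not pass in the main fit, 28 passed with the replicate block and 13 with only the 4 arrays compared. Deviations of same-numbered WT N4 and DKO arrays from their group means had r = 0.359 across genes; the values were 0.581 for WT N4 and PKCθ KO, 0.393 for non-pulsed WT and WT N4, and 0.252 for DKO and PKCθ KO. Same-numbered arrays thus deviated together in each of these pairs of groups, but only 2 numbers exist and the labels do not pair them.

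Differences that did not pass changed sign when 1 array was left out, with ranges of -0.043 to 0.76 for Tnf, -0.17 to 0.034 for Myc, -0.040 to 0.30 for Tbx21, -0.31 to 0.044 for Irf4, -0.48 to 0.21 for Bcl2, -0.030 to 0.39 for Cd3e, -0.14 to 0.061 for Rela, -0.089 to 0.64 for Nfkb2, -0.046 to 0.25 for Nfkbia, -0.64 to 0.11 for Tnfaip3, -0.44 to 1.10 for Cd83, -0.13 to 0.065 for Icam1, -0.51 to 3.09 for Igkv6-14, -2.83 to 0.31 for Ifitm1 and -3.06 to 0.56 for Bnip3. With 2 arrays a group, small differences could not be told from the spread, and dim probe sets carry more of it.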

Other observations

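Of 3384 probe sets with no gene symbol in the annotation, 6 passed limma between the DKO N4 and WT N4 arrays when all probe sets were tested, all 6 lower in the DKO, with differences down to -4.64 on the log2 scale. Of 649 probe sets with several symbols 5 passed, 4 higher and 1 lower. Their genes are not named here. Ceacam1, an adhesion receptor, passed by a dimmer probe set (4.86 and 4.44 in WT N4, 7.07 and 6.91 in the DKO; 2.34, limma adjusted p = 0.0295), as did Eif4e, the cap-binding translation factor (9.17 and 9.13 against 7.84 and 7.78; -1.34, limma adjusted p = 0.0429). Neither passed by its brightest probe set.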
